A study of Rattus norvegicus with 6 samples.

Results

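Wnt ligands, their receptors and their antagonists were compared between the soft tissue around dental implants and healed oral mucosa of rats. The group was defined by gene symbol: Wnt, Fzd, Sfrp, Dkk, Rspo and Axin genes, together with Lgr4, Lgr5, Lgr6, Lrp5, Lrp6, Lef1, Tcf7, Tcf7l1, Tcf7l2, Wif1 and Ctnnb1. On the array this gave 41 genes on 65 probe sets, out of 14217 genes on 31042 non-control probe sets. The rule uses symbols and no signal threshold, but the set was proposed with earlier results of these data known. Where a gene had several probe sets the brightest on average across the 6 arrays stood for it. The peri-implant group was 3 samples of soft tissue from around titanium alloy implants, and the mucosa group was 3 samples of oral mucosa from extraction sites that had healed without an implant. All samples came from male Sprague-Dawley rats that were 4 weeks old when the upper first molars of both sides were extracted, and tissue was taken 4 weeks later. The implant always stood in the left socket and the mucosa always came from the right, so tissue and side cannot be told apart, and every mucosal sample also comes from a healed wound rather than from untouched tissue. Whether the 3 samples of a tissue are 3 animals, and whether left and right samples share an animal, is not in the labels, so the p-values cover the spread among these arrays alone, which may be technical.

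Wnt proteins are secreted lipid-modified ligands that bind Frizzled receptors, in the canonical branch together with the co-receptor Lrp5 or Lrp6. In the canonical branch this stops the destruction complex, which contains Axin, from marking beta-catenin (Ctnnb1) for degradation, and beta-catenin then acts with Tcf/Lef factors on target genes. Sfrp and Wif1 proteins bind the ligands, Dkk proteins are best known for blocking the co-receptors, and R-spondins act through Lgr receptors to keep Frizzled proteins on the cell surface. In oral epithelium and its connective tissue the pathway is known for roles in progenitor cell renewal, tooth development and wound repair.

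Promoter sequences from RefSeq (build GRCr8, 250 bases upstream of the annotated start) were available here for 29 of the 41 genes. The entries missing were Axin1, Dkk2, Dkk3, Fzd2, Fzd3, Fzd6, Lgr5, Lrp5, Lrp6, Sfrp1, Sfrp4 and Wnt5b. The motifs CTTTGAT, then CTTTGAA, next CTTTGTT and also CTTTGTA, cores of the site that Tcf/Lef factors bind, were searched on both strands; they share their opening letters CTTTG, and a position can match only 1 of them on a strand. At least 1 of them stood in the promoters of 2 of the 29 genes (6.9%), Axin2 and Sfrp5, against 4985 of 33469 promoters of the same length in the table (14.9%). Taken singly, CTTTGAT stood in 3.15% of all promoters, CTTTGAA in 4.68%, CTTTGTT in 5.14% and CTTTGTA in 3.21%. Axin2 is a widely used feedback target of beta-catenin, and its promoter is shown because it held 2 matches on the plus strand, CTTTGAA from position -232 to -226 and CTTTGAT from -132 to -126 relative to the start. The promoters of Sfrp2, Fzd1, Wif1 and Wnt10a are shown because these genes passed the test between the tissues under every setting tried; Dkk3, which passed in all 14 settings that tested it, had no entry. Each is given 5′ to 3′ on the plus strand, which is the gene's own strand, in lower case with motif matches in capitals. They lie at chr10:94398535-94398784 for Axin2, chr2:171387286-171387535 for Sfrp2, chr4:30264824-30265073 for Fzd1, chr7:58433329-58433578 for Wif1 and chr9:83798344-83798593 for Wnt10a.
Axin2: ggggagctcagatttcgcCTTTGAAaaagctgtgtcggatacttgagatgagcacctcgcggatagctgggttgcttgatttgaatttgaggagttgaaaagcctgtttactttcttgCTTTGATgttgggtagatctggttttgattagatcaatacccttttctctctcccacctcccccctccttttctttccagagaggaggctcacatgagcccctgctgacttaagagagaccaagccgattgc
Sfrp2: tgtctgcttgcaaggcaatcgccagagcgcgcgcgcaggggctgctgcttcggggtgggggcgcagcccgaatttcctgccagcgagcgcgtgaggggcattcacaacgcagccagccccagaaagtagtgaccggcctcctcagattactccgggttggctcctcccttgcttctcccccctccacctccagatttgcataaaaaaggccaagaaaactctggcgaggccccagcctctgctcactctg
Fzd1: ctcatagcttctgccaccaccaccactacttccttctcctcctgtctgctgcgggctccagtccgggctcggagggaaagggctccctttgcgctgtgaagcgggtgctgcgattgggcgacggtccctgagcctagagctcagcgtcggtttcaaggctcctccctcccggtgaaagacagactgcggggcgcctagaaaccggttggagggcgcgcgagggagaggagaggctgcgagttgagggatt
Wif1: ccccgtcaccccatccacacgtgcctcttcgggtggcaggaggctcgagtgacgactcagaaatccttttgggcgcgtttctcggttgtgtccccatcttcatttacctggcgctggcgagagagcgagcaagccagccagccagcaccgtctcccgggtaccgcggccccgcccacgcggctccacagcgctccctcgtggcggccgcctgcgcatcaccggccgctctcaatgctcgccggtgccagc
Wnt10a: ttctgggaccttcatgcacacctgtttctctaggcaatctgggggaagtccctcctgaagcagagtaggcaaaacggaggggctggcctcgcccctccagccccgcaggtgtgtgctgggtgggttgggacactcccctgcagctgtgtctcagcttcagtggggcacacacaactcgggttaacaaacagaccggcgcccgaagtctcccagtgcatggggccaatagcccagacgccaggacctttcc
The search describes letters in this window only, and no measurement of factor binding was made on these tissues.

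Signals are log2 array intensities, and differences are peri-implant minus mucosa on that scale. A value under 5.90, the 40th percentile of all single values, is called dim. Median signal per array lay between 6.62 and 6.78, 58.3% to 62.4% of probe sets were above that floor on each array, and arrays correlated at 0.965 to 0.981 within a tissue and 0.931 to 0.945 between tissues. Probe sets were fitted with limma if their mean signal exceeded the 40th percentile of means (5.68), and p-values were adjusted over all 18625 tested probe sets by the Benjamini-Hochberg method, with 0.05 as the threshold.

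Of the 41 Wnt genes 29 reached the test, and in peri-implant soft tissue 4 were higher and 7 were lower, while 18 did not pass. Higher were the ligands Wnt1 and Wnt5a, the receptor Fzd1 and the antagonist Sfrp1. Lower were the ligands Wnt4, Wnt6, Wnt9a and Wnt10a and the antagonists Sfrp2, Dkk3 and Wif1. Over all genes tested 26.1% passed (2767 of 10585), 15.2% higher and 11.0% lower; among the Wnt genes these shares were 37.9%, 13.8% and 24.1%. The median difference of the 29 Wnt genes was -0.10, against 0.03 over all genes tested, and their differences ran from -1.50 to 1.73. Without peri-implant 1 only 2 Wnt genes were higher, and without mucosa 1 only 4 were lower. Calls over all genes tested fell as well, to 2266 of 10571 without peri-implant 1 and 2351 of 10595 without mucosa 1. The median absolute difference was 0.54, against 0.235 over all genes tested.

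The tissues did not overlap in 12 of the 29 Wnt genes (41.4%), and this share was near the 41.9% found over all genes tested. In 5 of them all peri-implant arrays lay above and in 7 all lay below, against 24.0% and 17.9% of all genes tested. Fewer arrays separate more easily: without mucosa 2, 19 Wnt genes did not overlap. Wnt5b was also tested there, and the share over all genes was not counted in that setting, so this number has no comparison. A dim gene could reach the test through its brighter tissue alone: Wnt1 and Wnt16 were dim in mucosa on average, so the counts above do not stand for all 41 genes. Restricted to the 27 Wnt genes with means above the floor in both tissues, 3 were higher and 7 lower (37.0% called), against 26.1% of 9946 genes chosen the same way. In these bulk samples, fewer cells of a type and less RNA per cell cannot be told apart.

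**Figure D1:**
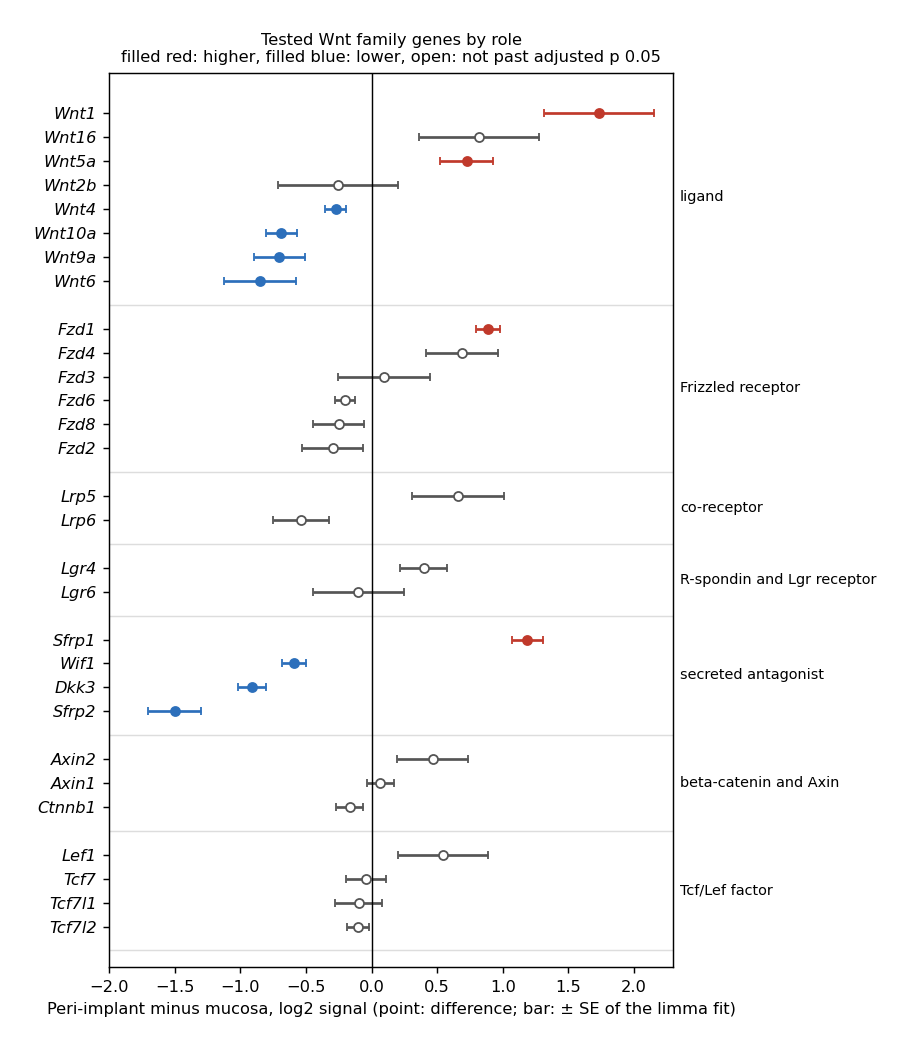
Difference in log2 signal between peri-implant soft tissue and oral mucosa for the 29 tested Wnt genes, grouped by role; points are the fitted differences and bars their standard errors, filled for the 11 genes past the threshold (red higher, blue lower) and open for the rest. Wnt1 at 1.73 lies farthest to the higher side and Sfrp2 at -1.50 farthest to the lower side.

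Among the 13 Wnt ligands on the array, 8 were tested, and 2 rose and 4 fell, against 15.2% higher and 11.0% lower over all genes tested. Wnt10a, a ligand of epithelium that is known for its part in tooth and skin appendage development, measured 9.68, 9.48 and 9.82 in the 3 peri-implant samples and 10.59, 10.28 and 10.19 in the 3 mucosal samples. All peri-implant values lay below all mucosal values, at means of 9.66 ± 0.17 against 10.35 ± 0.21 (SD, n = 3 each). The gene was 1.61-fold lower (difference -0.69, SE 0.12, adjusted p = 0.001). Among the ligands it was the only one that passed under all 16 alternatives. It has no other probe set, so the second probe set setting repeated its main result and could not change it.

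Wnt4, a ligand of epithelial development, was the brightest ligand probe set, though signals of different probe sets do not compare the genes' amounts. Its signal was 12.03, 12.16 and 12.18 around implants and 12.45, 12.25 and 12.48 in mucosa, without overlap but with the closest arrays only 0.076 apart. The means of 12.12 ± 0.08 and 12.40 ± 0.12 (n = 3 each) put it 1.21-fold lower (difference -0.27, SE 0.08, adjusted p = 0.0286). The call was lost with median centring of the arrays (adjusted p = 0.105) and without peri-implant 1 (0.123), peri-implant 2 (0.0642), mucosa 1 (0.0919) or mucosa 3 (0.077) (range over all alternatives 0.00797 to 0.147).

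Wnt9a, a ligand known from joint and skeletal development, measured 7.89, 7.85 and 7.38 in peri-implant tissue against 8.54, 8.19 and 8.51 in mucosa. The tissues did not overlap, and the gene was 1.63-fold lower (7.71 ± 0.28 against 8.41 ± 0.20, n = 3 each; difference -0.70, SE 0.19, adjusted p = 0.0192). It no longer passed without peri-implant 3 (0.0738), mucosa 1 (0.0747) or mucosa 3 (0.0575), within a range of adjusted p from 0.012 to 0.0747. Wnt6, an epithelial ligand, read 7.63, 7.01 and 6.88 around implants and 8.06, 8.47 and 7.55 in mucosa. Here the tissues overlapped, because peri-implant 1 lay above mucosa 3. Wnt6 was 1.81-fold lower (7.17 ± 0.40 against 8.03 ± 0.46, n = 3 each; difference -0.85, SE 0.28, adjusted p = 0.041), and the call was lost without peri-implant 2 (0.122), peri-implant 3 (0.131), mucosa 1 (0.0998) or mucosa 2 (0.157), within a range of 0.0129 to 0.157.

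Wnt5a, the ligand best known for non-canonical signalling and inflammation, gave 9.61, 8.77 and 8.90 in peri-implant tissue and 8.34, 8.58 and 8.19 in mucosa. Peri-implant 1 was well above the rest, and all peri-implant samples lay above all mucosal ones. The gene was 1.65-fold higher (9.10 ± 0.45 against 8.37 ± 0.20, n = 3 each; difference 0.72, SE 0.20, adjusted p = 0.0197). Without peri-implant 1 the difference was 0.47 and did not pass (adjusted p = 0.0849), and the call was also lost without mucosa 1 (0.0533) or mucosa 3 (0.0585), within a range of 0.00839 to 0.104.

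Wnt1, the founding member of the family and a canonical ligand, had the greatest positive difference of the tested genes. Its signal was 7.39, 6.65 and 6.79 around implants and 5.28, 4.54 and 5.82 in mucosa, where all 3 values were dim. The fitted difference of 1.73 (SE 0.42, adjusted p = 0.00917; means 6.95 ± 0.39 and 5.22 ± 0.64, n = 3 each) therefore depends on values near background, and it shrank to 1.05 once dim values were set to the floor. Without peri-implant 1 the call was lost (difference 1.51, adjusted p = 0.0553; range over its alternatives 0.00439 to 0.0553). The other tested ligands did not pass: Wnt16 had a difference of 0.82 (SE 0.46, adjusted p = 0.237) and Wnt2b one of -0.26 (SE 0.46, adjusted p = 0.741).

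**Figure D2:**
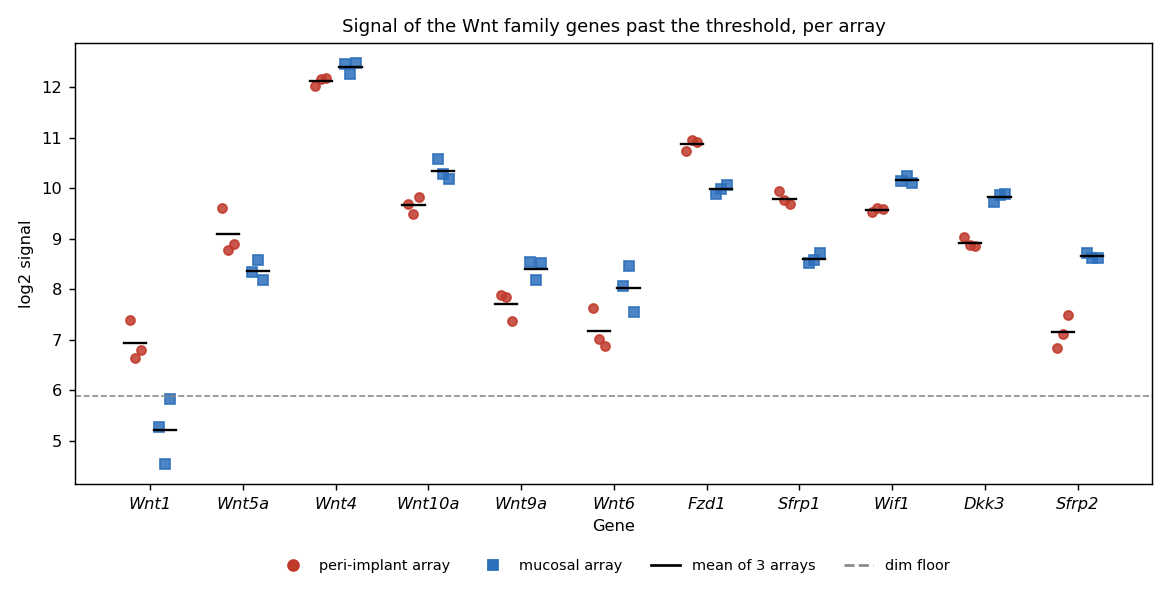
Log2 signal of the 11 Wnt genes that passed the test in each of the 3 peri-implant and 3 mucosal samples; red circles are peri-implant arrays, blue squares mucosal arrays, short lines means of 3 arrays, and the dashed line is the floor for dim values at 5.90. The tissues do not overlap in 10 of the 11 genes, and in Wnt6 peri-implant 1 lies above mucosa 3.

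The remaining 5 ligands were not tested because their mean over the arrays was under the filter. Wnt5b, a close relative of Wnt5a, just missed it: its signal was 7.19, 6.71 and 6.97 around implants and 5.18, 3.08 and 4.71 in mucosa, where all values were dim. No peri-implant sample came within 1.53 of a mucosal one, and the difference was 2.63 as deposited and 1.06 once dim values were set to the floor. In the fit without a filter Wnt5b passed (adjusted p = 0.0121), and it passed in each of the other 3 settings that tested it, those without mucosa 1 (0.00186), mucosa 2 (0.00215) or mucosa 3 (0.00402); it did so by being brighter in 1 tissue alone.

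Wnt11, a non-canonical ligand, read 6.81, 5.11 and 5.03 against 4.63, 1.52 and 2.03, so only peri-implant 1 was above the floor (adjusted p = 0.0927 without a filter). Wnt2 went the other way, at 3.83, 5.70 and 5.0 around implants against 5.87, 5.88 and 6.40 in mucosa, with 1 value of the 6 above the floor (adjusted p = 0.294 without a filter). Wnt7a lay between 4.38 and 5.80 around implants and between 5.63 and 6.35 in mucosa, and Wnt8b was at or below 2.32 on every array.

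**Figure D3:**
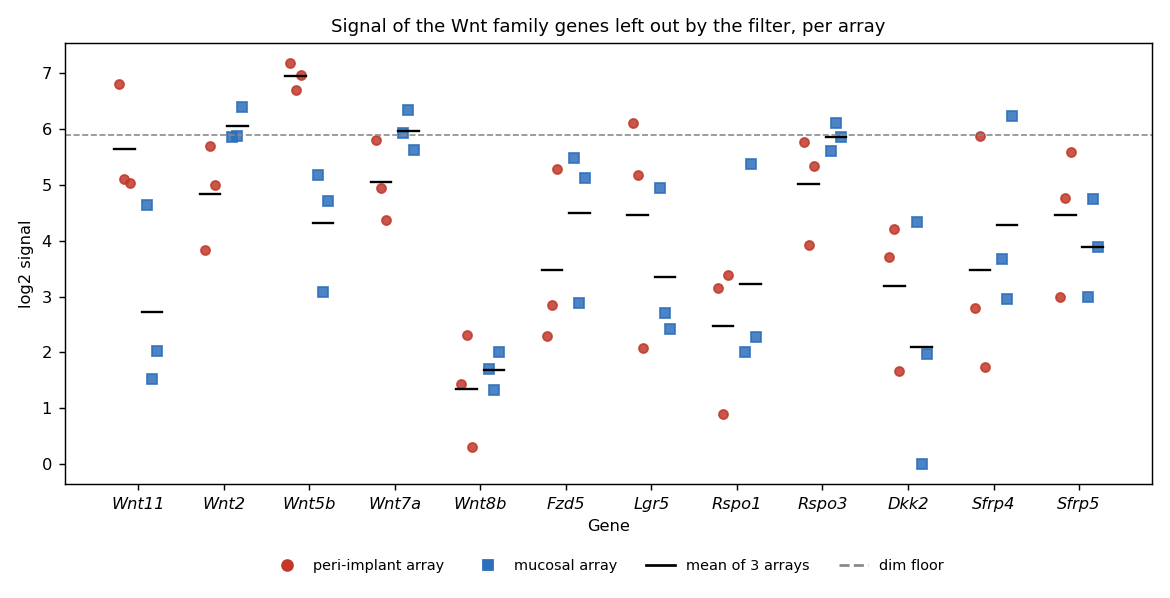
Log2 signal in each peri-implant (red circles) and mucosal (blue squares) sample for the 12 Wnt genes left out by the filter, with means of 3 arrays as short lines and the floor of 5.90 as a dashed line. Wnt5b alone has all peri-implant samples above the floor and all mucosal samples below it, and most of the others scatter below the floor in both tissues.

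Of 7 Frizzled receptors 6 were tested, 1 rose and none fell at the threshold, against 15.2% higher and 11.0% lower over all genes tested. Fzd1, a receptor for canonical ligands, measured 10.73, 10.96 and 10.90 in peri-implant samples and 9.89, 9.98 and 10.07 in mucosal samples. The tissues were separated by 0.66 at their closest arrays, with means of 10.87 ± 0.12 and 9.98 ± 0.09 (n = 3 each). Fzd1 was 1.85-fold higher (difference 0.89, SE 0.09, adjusted p = 1.07e-05) and passed under all 16 alternatives. It has no other probe set, so the second probe set setting repeated its main result.

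Fzd6, a receptor tied to tissue polarity, was 10.80, 10.80 and 10.93 around implants and 11.02, 11.04 and 11.08 in mucosa; the tissues did not overlap, yet the difference of -0.20 (SE 0.07, adjusted p = 0.0691) missed the threshold. Fzd4, a receptor of vascular development, read 7.45, 7.74 and 7.61 against 6.71, 6.54 and 7.47, overlapping because mucosa 3 lay just above peri-implant 1 (difference 0.69, 95% interval 0.09 to 1.29, adjusted p = 0.0947). Without mucosa 3 its difference was 0.97 and passed (adjusted p = 0.0177; range over its alternatives 0.0177 to 0.254). Fzd2 (difference -0.30), Fzd3 (0.10) and Fzd8 (-0.25) had adjusted p between 0.399 and 0.883, and Fzd5 was dim in both tissues.

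Neither co-receptor passed. Lrp5 measured 7.64, 7.11 and 7.16 around implants and 6.13, 7.47 and 6.34 in mucosa, where mucosa 2 stood above the other samples of its tissue (difference 0.66, 95% interval -0.10 to 1.42, adjusted p = 0.211). Without mucosa 2 the difference was 1.07 and passed (adjusted p = 0.0251; range 0.0251 to 0.491). Lrp6 measured 7.35, 7.54 and 8.0 against 8.41, 7.92 and 8.18, with overlap at peri-implant 3 (difference -0.54, 95% interval -1.01 to -0.07, adjusted p = 0.0969). Without peri-implant 3 it passed at -0.73 (adjusted p = 0.0413; range 0.0413 to 0.282). The estimates for these co-receptors thus had opposite signs, and their difference from each other was not tested.

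Of the R-spondins and Lgr receptors 2 of 5 were tested and neither passed. Lgr4, the most broadly expressed Lgr receptor, was 8.16, 8.05 and 7.95 around implants and 7.54, 7.79 and 7.63 in mucosa without overlap (difference 0.40, 95% interval 0.0067 to 0.79, adjusted p = 0.143). Lgr6, a marker of stem cells in skin, differed by -0.10 (adjusted p = 0.871). Lgr5, the intestinal stem cell marker, was dim on average in both tissues, with 6.10, 5.18 and 2.09 against 4.95, 2.71 and 2.42, and Rspo1 and Rspo3 were dim in both as well.

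All 4 of the 7 secreted antagonists that reached the test passed, 1 higher and 3 lower. Over all genes tested 15.2% were higher and 11.0% lower, and 4 genes are a small count to set beside that. Sfrp1, which binds Wnt ligands, read 9.95, 9.76 and 9.68 in peri-implant tissue and 8.52, 8.58 and 8.73 in mucosa. The closest arrays of the tissues were 0.96 apart. Sfrp1 was 2.28-fold higher (9.80 ± 0.14 against 8.61 ± 0.11, n = 3 each; difference 1.19, SE 0.12, adjusted p = 8.26e-06). A second, much weaker Sfrp1 probe set did not pass (6.28 ± 0.19 against 6.04 ± 0.50, n = 3 each; difference 0.24, SE 0.37, adjusted p = 0.696), and with the mean of its probe sets Sfrp1 did not pass either (0.72, adjusted p = 0.152; range over its alternatives 3.65e-06 to 0.696).

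Sfrp2, its relative from connective tissue, moved the other way, with 6.84, 7.11 and 7.50 around implants and 8.71, 8.61 and 8.63 in mucosa. Every peri-implant value was at least 1.12 below the lowest mucosal value. Sfrp2 was 2.83-fold lower (7.15 ± 0.33 against 8.65 ± 0.05, n = 3 each; difference -1.50, SE 0.20, adjusted p = 1.17e-04). Its second probe set was lower as well (5.63 ± 0.67 against 6.98 ± 0.41, n = 3 each; difference -1.34, SE 0.40, adjusted p = 0.0296).

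Within each array, Sfrp1 minus Sfrp2 was 3.11, 2.65 and 2.19 in peri-implant tissue and -0.19, -0.03 and 0.10 in mucosa. This contrast was chosen because the genes had moved in opposite directions, so it is a description with no test, and signals of different probe sets do not say which gene is more abundant.

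Dkk3, a divergent member of the Dickkopf family, measured 9.04, 8.87 and 8.85 around implants against 9.74, 9.87 and 9.88 in mucosa. The tissues were 0.70 apart at their closest arrays, and Dkk3 was 1.88-fold lower (8.92 ± 0.10 against 9.83 ± 0.08, n = 3 each; difference -0.91, SE 0.11, adjusted p = 3.47e-05); its other 3 probe sets were dim and not tested. Wif1, a secreted Wnt inhibitor, read 9.52, 9.61 and 9.59 against 10.15, 10.24 and 10.11. These values were the tightest of the antagonists around implants, and Wif1 was 1.51-fold lower (9.58 ± 0.05 against 10.17 ± 0.07, n = 3 each; difference -0.59, SE 0.09, adjusted p = 3.16e-04). Dkk2, Sfrp4 and Sfrp5 were dim in both tissues and not tested.

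Inside the cell, no gene passed at the level of beta-catenin, Axin or the Tcf/Lef factors on the probe set used: 7 of 7 were tested. Over all genes tested 26.1% passed. Axin2, the feedback gene whose promoter is printed above, measured 7.41, 7.09 and 7.35 around implants and 6.71, 6.54 and 7.20 in mucosa. The tissues overlapped at mucosa 3, and the difference of 0.46 had a 95% interval from -0.11 to 1.04 (adjusted p = 0.251). Axin1, the scaffold of the destruction complex, was 9.35 ± 0.09 against 9.29 ± 0.01 (n = 3 each; difference 0.07, 95% interval -0.16 to 0.29, adjusted p = 0.694).

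Ctnnb1, beta-catenin itself, read 14.76, 14.75 and 14.95 against 14.84, 15.11 and 15.01 (difference -0.17, 95% interval -0.39 to 0.05, adjusted p = 0.279). Its probe sets did not all give the same call: a second one measured 12.84, 12.81 and 12.84 against 13.23, 12.96 and 13.36, without overlap, and passed as lower (difference -0.35, SE 0.09, adjusted p = 0.0168), while another did not pass (-0.11, adjusted p = 0.454). The fourth was dim on all 6 arrays (-2.48 as deposited and 0 with dim values set to the floor) and was not tested. The mean over all 4 probe sets passed as lower at -0.78 (adjusted p = 0.0201; range over its alternatives 0.0168 to 0.573), a value that includes the dim probe set; the 3 brighter ones lay between -0.35 and -0.11. Messenger RNA of Ctnnb1 does not measure the protein's stability, on which the pathway acts.

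**Figure D4:**
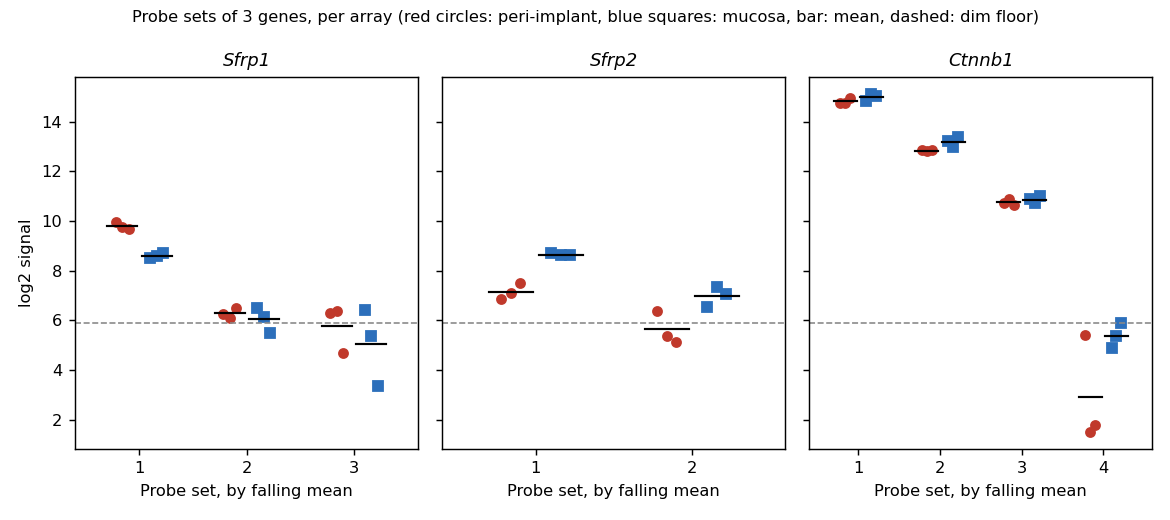
Log2 signal in each peri-implant (red circles) and mucosal (blue squares) sample for every probe set of Sfrp1, Sfrp2 and Ctnnb1, ordered by falling mean, with means of 3 arrays as short lines and the floor of 5.90 as a dashed line. The brightest Sfrp1 probe set separates the tissues by 0.96 at the closest arrays while the weaker ones overlap, both Sfrp2 probe sets are lower around implants, and of the 4 Ctnnb1 probe sets only the second separates the tissues.

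Lef1, a Tcf/Lef factor, measured 7.23, 7.10 and 6.48 around implants and 6.31, 6.92 and 5.95 in mucosa, with overlap (difference 0.54, 95% interval -0.20 to 1.28, adjusted p = 0.299). Tcf7 differed by -0.04 (95% interval -0.37 to 0.29), Tcf7l1 by -0.10 (-0.49 to 0.29) and Tcf7l2 by -0.10 (-0.29 to 0.08), with adjusted p of 0.883, 0.751 and 0.439. A weaker Tcf7l1 probe set was lower in every peri-implant sample than in every mucosal one but did not pass (-0.75, SE 0.29, adjusted p = 0.0803).

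The rest of the pathway was followed through 5 lists of 103 genes, of which 88 were found on the array and 75 were tested. Of these 6 were higher, 19 lower and 50 did not pass, with a median difference of -0.12. Beside this total and each list below stand 15.2% higher and 11.0% lower over all genes tested, where the median difference was 0.03. In the list of ligand secretion and membrane turnover 1 of 12 tested genes rose and 4 fell. Porcn, the acyltransferase that lipidates Wnt ligands, read 9.03, 8.87 and 8.98 around implants and 7.69, 7.82 and 7.62 in mucosa, a 2.37-fold rise without overlap (difference 1.25, SE 0.15, adjusted p = 4.12e-05). Its second probe set gave 1.65 but did not pass (adjusted p = 0.123; range over its alternatives 1.39e-05 to 0.123). Wls, the carrier that takes lipidated ligands to the cell surface, was lower in every peri-implant sample (10.26 ± 0.09 against 10.66 ± 0.15, n = 3 each; difference -0.40, SE 0.09, adjusted p = 0.0072). Gpc3, a cell surface glypican that binds Wnt ligands, fell by 1.18 (SE 0.13, adjusted p = 2.29e-05), and Sostdc1, an extracellular Wnt and BMP antagonist of tooth development, fell by 0.56 (SE 0.08, adjusted p = 1.74e-04).

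In the destruction complex and cytoplasmic relay 1 of 13 tested genes rose, 2 fell and 10 did not pass. Dvl1, which relays the signal from Frizzled receptors, was higher on the probe set used (difference 0.62, SE 0.13, adjusted p = 0.00368), but its second probe set had the opposite sign (-0.049) and did not pass. Macf1, a cytoskeletal linker that carries Axin to the membrane, fell by 0.41 (SE 0.07, adjusted p = 7.9e-04), and Csnk1a1, a kinase of beta-catenin, fell by 0.31 (SE 0.07, adjusted p = 0.00799); the call on Csnk1a1 was lost without peri-implant 2 (0.0541; range 0.00149 to 0.0563).

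In the non-canonical and polarity list 2 of 12 tested genes rose and 2 fell. Prickle2 and Prickle1, polarity proteins, rose by 0.60 (SE 0.08, adjusted p = 1.25e-04) and 0.82 (SE 0.16, adjusted p = 0.00199). With the mean of its probe sets Prickle1 was at 0.37 and did not pass (adjusted p = 0.306; range over its alternatives 7e-04 to 0.306). Nfatc1, a calcium-dependent transcription factor that also directs osteoclast formation, measured 8.80, 7.95 and 8.42 around implants against 9.79, 9.67 and 9.58, and fell by 1.29 (SE 0.18, adjusted p = 1.68e-04). Daam1, a formin downstream of Dishevelled, fell by 0.41 (SE 0.07, adjusted p = 6.93e-04), and with the mean of its probe sets its difference was -0.81 and did not pass (adjusted p = 0.175; range over its alternatives 3.2e-04 to 0.175).

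Among 19 nuclear co-factors and feedback inhibitors 2 rose, 1 fell and 16 did not pass. Tnik, a kinase that phosphorylates Tcf factors, showed the largest rise of the 75 pathway genes tested: 8.27, 8.14 and 8.19 around implants against 5.92, 6.48 and 5.41 in mucosa (difference 2.26, SE 0.29, adjusted p = 9.05e-05). A value of mucosa 3 was dim, and setting dim values to the floor gave a difference of 2.10. Tle3 rose by 0.41 (SE 0.10, adjusted p = 0.00976), and its call was lost with no variance trend (adjusted p = 0.0777). Nkd1, a feedback inhibitor induced by canonical signalling, measured 5.74, 5.53 and 6.35 against 6.78, 7.04 and 7.05 and fell by 1.08 (SE 0.33, adjusted p = 0.0342), with 2 dim peri-implant values. Its call was lost without any 1 of peri-implant 1, peri-implant 2, mucosa 1, mucosa 2 or mucosa 3 (adjusted p 0.0562 to 0.121).

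Of the commonly cited beta-catenin target genes 10 of 19 tested were lower and none was higher in peri-implant tissue, with a median of -0.33, against 11.0% lower over all genes tested. In 11 of the 19 all peri-implant samples lay below all mucosal samples, against 17.9% of all genes tested. The list was chosen with earlier results of these data known. Axin2 (difference 0.46, not past the threshold) and Nkd1 (-1.08, lower), feedback genes of the pathway, were counted in other groups above and are not in it. Ccn2, the matrix-associated connective tissue growth factor, read 10.53, 10.74 and 10.67 around implants and 11.74, 11.67 and 11.72 in mucosa, and fell by 1.06 (SE 0.08, adjusted p = 4.93e-07). Fosl1, a subunit of the AP-1 transcription factor, read 7.29, 6.83 and 7.74 against 8.87, 9.23 and 8.93 and fell by 1.72 (SE 0.22, adjusted p = 8.35e-05). Msx1, a homeobox factor of tooth and craniofacial mesenchyme, fell by 1.12 (SE 0.21, adjusted p = 0.00172), and the hyaluronan receptor Cd44 fell by 0.53 (SE 0.09, adjusted p = 6.05e-04).

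The other lower targets were Jun, Ccn1, Ccnd1, Ascl2, Ccn4 and Msx2. Around implants Ascl2 and Ccn4 were dim on average, with 1 and 2 dim arrays of 3. A second Jun probe set had the opposite sign without passing (0.10). Of these 6 calls none held under every alternative that tested the gene. Msx2 lost its call in 9 of 16 (adjusted p 0.0206 to 0.639), among them those without peri-implant 2, peri-implant 3, mucosa 1 or mucosa 2. Ccn4 lost it in 6 of 14 (0.00757 to 0.111), including the fits without peri-implant 2, where its difference went from -1.47 to -0.96, mucosa 1, mucosa 2 or mucosa 3. Ascl2 lost it in 5 of 14 (0.00828 to 0.0924), including those without peri-implant 3, where its difference went from -1.46 to -0.94, mucosa 2 or mucosa 3. Ccnd1 lost it in 4 of 16 (0.00319 to 0.104), including those without peri-implant 1, peri-implant 2 or mucosa 1, Jun in 3 of 16 (0.0035 to 0.632) and Ccn1 in 1 of 16, without mucosa 2 (0.00611 to 0.053). Ccn2, Fosl1, Msx1 and Cd44 kept their calls in all alternatives that tested them.

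Myc, Tbx3, Gja1, Birc5, Ephb3, Edn1, Id2, Bmp4 and Twist1 did not pass. All of these targets also answer to other pathways. With the mean of probe sets 6 targets were lower, and with no variance trend 5. Ascl2 and Ccn4 were not tested with the mean of probe sets.

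Cell type markers moved between the tissues with these genes. Over all genes tested 15.2% were higher and 11.0% lower. Of 10 tested fibroblast markers 7 were lower and 2 higher, with a median of -0.79. Their log2 summed signal was 15.31 to 15.37 around implants against 15.98 to 16.12 in mucosa. Col1a1, the main fibrillar collagen chain, fell by 0.83 (SE 0.07, adjusted p = 3.57e-06). The 2 higher markers were Dcn (0.34, adjusted p = 0.00517) and Dpt (0.67, adjusted p = 0.0115). Sfrp2, Dkk3 and Ccn2, which fibroblasts also make, fell in the same samples, while Sfrp1, Wnt5a and Fzd1 rose by 1.19, 0.72 and 0.89. The part of the fibroblast shift in any of these values was not tested. Macrophage markers went up in 8 of 9 cases (summed 14.55 to 14.67 against 13.24 to 13.31) and T and B lymphocyte markers in 5 of the 5 tested (10.25 to 10.42 against 7.86 to 8.10). Neutrophil markers went up in 3 of 4 (16.85 to 17.29 against 14.68 to 14.81), namely S100a8, S100a9 and Csf3r. Cxcr2 did not pass (difference -0.10, adjusted p = 0.762), and Camp was dim in both tissues and not tested. The neutrophil sum rests mainly on S100a9 and S100a8, with peri-implant means of 16.15 and 15.87 against 8.82 for Csf3r. Of the lymphocyte markers only Cd3g and Cd2 had means above the floor in both tissues; Jchain, Cd3e and Cd5, like the macrophage marker Adgre1, were dim in all 3 mucosal samples and reached the test through the peri-implant samples, and 3 further lymphocyte markers were not tested. Wnt5a and Wnt5b, which myeloid cells can express, were higher in the same samples, and the part of these cells in that was not tested.

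**Figure D5:**
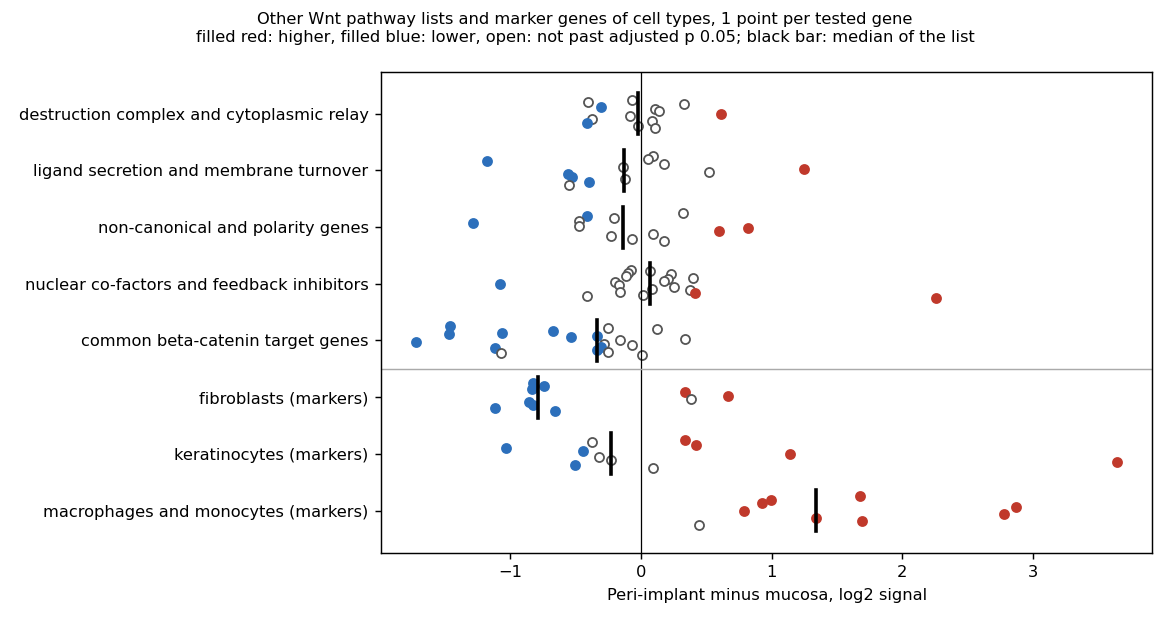
Differences in log2 signal, peri-implant minus mucosa, of the tested genes in the 5 Wnt pathway lists and in 3 marker lists (fibroblasts, keratinocytes, macrophages and monocytes); each point is a gene, red where higher, blue where lower and open where it did not pass, and the black bar is the median of the list. Medians of the pathway lists run from -0.33 for the beta-catenin targets to 0.07 for the nuclear co-factors, with fibroblast markers at -0.79 and macrophage markers at 1.34.

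Keratinocyte markers did not move in 1 direction: 4 of 11 were higher and 3 lower, with summed signals of 18.02 to 18.41 against 18.10 to 18.55, so the ranges overlapped. Krt15, a keratin of basal cells, was 3.65 higher, Krt1, a keratin of differentiated layers, was 1.14 higher, and Itga6, the integrin that anchors basal cells, fell by 1.03. Wnt4 and Wnt10a, ligands that epithelium makes, were lower in the samples where this marker set was mixed, and the part of the epithelium in that was not tested. Both labelled tissues thus held epithelial and connective tissue transcripts. Of the remaining marker lists, those for endothelium (2 higher of 8), erythrocytes (4 of 5) and adipocytes (1 of 3) had no lower call. Skeletal muscle had 1 higher call among 2 tested genes, Mb, which was dim in all 3 mucosal samples. The other 7 muscle genes were not tested. Among them Acta1 lay at 2.52, 1.55 and 4.53 around implants against 6.90, 6.97 and 6.93 in mucosa. Schwann cell markers (2 of 3) had no higher call. Smooth muscle and pericyte (1 higher and 2 lower of 7), salivary gland (1 and 2 of 4) and bone markers (1 and 1 of 2) were mixed.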

How the data were processed

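Total RNA of 3 peri-implant and 3 oral mucosal samples was hybridised as biotin-labelled amplified RNA to rat Affymetrix 3′ expression arrays. The authors deposited log2 signals for 31099 probe sets, and which software made them is not given in the sources used here. A linear mean trimmed by 2% lay between 496 and 497 on every array, so the values are scaled per array, and no values were rescaled. Leaving out 57 control probe sets, 20826 probe sets carried 1 gene symbol in the platform annotation, 436 several and 9780 none; only those with 1 were named.

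Tissues were compared by a two-sided moderated linear model without covariates (limma 3.58.1, R 4.3.3; functions lmFit and eBayes, variance trend on) over probe sets above the 40th percentile of mean signal, with Benjamini-Hochberg adjustment over 18625. The fit was also run on simulated data with independent noise on every array, which cannot show whether the real arrays are independent. The number of arrays limits the precision. All 41 Wnt genes matched RefSeq by gene number with the same symbol. Any of them could be named; from other lists up to 4 genes with the smallest p that passed (up to 3 markers), and genes named beyond that rule were chosen after their values were seen. The Wnt genes and the lists were chosen with earlier results of these data known. Alternatives changed the filter, scaling, floor, variance model, probe set choice and replicate block, and left out each array.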

Additional observations from a re-analysis of the deposited data

How the results depend on the processing

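Across 16 alternatives, none of the 11 Wnt genes that passed changed sign. Fzd1, Sfrp2, Wif1, Wnt10a and Dkk3 kept their call wherever they were tested (Dkk3 in 14). Sfrp1, Wnt1, Wnt4, Wnt5a, Wnt6 and Wnt9a lost it in at least 1. For a gene without another probe set, such as Fzd1, Wif1 and Wnt10a, the second probe set setting repeated the main result and could not change it. The other probe sets of Dkk3 were not tested, so probe set choice was not tried on it. With the mean of probe sets the 4 higher Wnt genes became 2, as Sfrp1 lost its call and Wnt1 was not tested there. When an array was left out they became 2 to 6 (2 without peri-implant 1). The 7 lower became 4 with no variance trend and 4 to 6 with an array left out (4 without mucosa 1). Over all genes tested 2050 to 2728 passed with an array left out, against 2767. The 12 genes whose tissues do not overlap became 15 to 19 with an array left out, where fewer arrays make separation easier (19 without mucosa 2). The genes tested differ between these fits, and the share over all genes was not counted in them. The median difference of -0.10 was -0.20 with a filter at the 60th percentile, -0.26 with the mean of probe sets, -0.20 with the second probe set, and -0.18 to -0.061 with an array left out. With no variance trend Wnt4 (adjusted p = 0.147), Wnt5a (0.104), Wnt6 (0.112) and Wnt9a (0.0505) did not pass, and without a filter Wnt6 (0.0578) did not; 1816 genes in all passed with no trend, against 2767. Fzd6 passed with the 60th percentile filter (0.0473) and with the mean of probe sets (0.045; range 0.045 to 0.225). In the other pathway lists the 6 higher genes became 3 with the second probe set, and the 19 lower genes 12 with no variance trend. The 10 lower beta-catenin targets became 5 with no variance trend and 6 with the mean of probe sets. In that last setting Jun and Msx2 lost their calls, while Ascl2 and Ccn4 were not tested. Of these 25 pathway genes 11 kept their call wherever tested. Dvl1 (-0.049) and Jun (0.10) reversed with the second probe set. The cause of these changes was not tested.

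Samples with the same number did not deviate together (correlations of 0.01, -0.08 and 0.03), so the numbers were not taken as pairs; with the replicate block 4 Wnt genes were higher and 7 lower, and 2704 genes in all passed. A pseudocount was not varied because the values are already log2. Dim signals limit what can be said of the 12 Wnt genes not tested: the median SD within a tissue was 1.34 and 1.41 for the 9 that were dim in both, against 0.17 and 0.20 for the 27 above the floor in both.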
